A study of Mus musculus with 7 samples.

Results

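The replication-dependent histone genes were taken as the 68 rows, of 23420 gene rows, whose symbol begins with Hist1h, Hist2h, Hist3h or Hist4h. They were read in bulk RNA from the hearts of 7 mice aged 3 to 6 weeks, none of them treated. The 4 control mice were Ctla4+/+;Pdcd1-/- and the 3 mice with ICI-myocarditis, a model of heart inflammation caused by immune checkpoint inhibitors, were Ctla4+/-;Pdcd1-/-, so that loss of Pdcd1 was shared by both groups. The tissue label reads whole heart while the extraction protocol names frozen ventricle, and the model is germline and not a drug given to an adult animal. Whether the libraries of a group came from separate litters is not given in the sources used here, so the tests measure the spread between these libraries.

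Nucleosomes are built from the core histones H2A, H2B, H3 and H4, and the linker histone H1 binds the DNA between them. Cells that copy their DNA need new histones at once, and the genes for them sit in clusters and are switched on together in S phase by the factor NPAT. Their mRNAs are unusual in having no introns and no poly(A) tail: the end is a short stem-loop bound by the protein SLBP. Libraries of total RNA keep such mRNAs, which selection for poly(A) would mostly lose. Some of the same genes can also give longer mRNAs with a poly(A) tail in cells that no longer divide. In the adult heart most muscle cells do not divide, while infiltrating lymphocytes and macrophages can.

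Of the 68 genes, 6 encode H1, 18 H2A, 19 H2B, 12 H3 and 13 H4. The Hist1 cluster on chromosome 13 holds 54 of them, the Hist2 cluster on chromosome 3 holds 10, Hist3 on chromosome 11 holds 3 and Hist4 on chromosome 6 holds 1. The stem-loop that defines this mRNA class was searched over the whole length of the GENCODE M21 transcripts (GRCm38), on the transcribed strand. The letters were the arms GGNNCT and AGNNCC with the loop TNTN between them. A match was found in 46 of the 68 genes, against 201 of 55341 gene names with a match anywhere in a transcript (0.363%). In the 46 genes the match lay after the stop codon, from 21 bases past it in Hist2h2ac to 58 in Hist2h2aa1. Of the 22 genes without it, 18 have an annotated end less than 50 bases past the stop codon. Of the forms found, 4 are given with 1 gene that carries each, since they set H4 apart from the other classes. Capitals mark the arms of the stem and lower case the loop.
Hist1h3d: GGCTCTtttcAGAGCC
Hist1h3f: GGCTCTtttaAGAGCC
Hist1h4d: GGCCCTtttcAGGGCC
Hist1h4b: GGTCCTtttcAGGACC
The first form was read in 26 genes and the second in 6, all of them H1, H2A, H2B or H3 genes. The third was read in 7 genes and the fourth in 2, all of them H4 genes. Variants of the third with another loop base were read in further H4 genes, 2 with the loop tttt and 1, Hist1h4a, with tctc. Hist1h3d lies at chr13:23575763-23577011 and Hist1h3f at chr13:23544052-23545312, both on the plus strand. Hist1h4d lies at chr13:23581598-23582735 and Hist1h4b at chr13:23757013-23757409, also on the plus strand. A match is a description of the annotated sequence and was not measured in these libraries.

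The libraries held 20931730 to 39037176 reads assigned to genes. Neither genotype could be checked from counts per gene, since Pdcd1 had 2.50 to 244 normalized counts in controls and 1096 to 1481 in ICI-myocarditis, and Ctla4 29.2 to 113 and 251 to 373. The 8 cardiomyocyte markers were present in every library, and their summed level was 2396680 to 4752690 normalized counts in controls and 1830710 to 2889780 in ICI-myocarditis. The 8 T cell markers summed to 116 to 1564 in controls, with control 2 the highest, and to 6993 to 10794 in ICI-myocarditis. Control 2 stood apart from the other controls in these T cell genes.

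As a module, histone mRNA was higher in every ICI-myocarditis heart than in any control. Summed over the 68 rows, controls 1 to 4 held 14611, 26033, 21484 and 28163 normalized counts and the ICI-myocarditis libraries 66376, 43895 and 41365. The group means, 22573 ± 5995 (SD, n = 4) and 50545 ± 13768 (SD, n = 3), stood in a ratio of 2.24. As a share of all normalized counts the rows held 0.0445% to 0.101% in controls and 0.154% to 0.232% in ICI-myocarditis. In bulk tissue, more cells that make histone mRNA and more histone mRNA in each cell cannot be told apart. The ratio of means differed between classes: it was 3.88 for H3, 2.57 for H2A, 2.27 for H2B, 1.98 for H1 and 1.93 for H4. H3 accordingly took 8.75% ± 2.45 of histone counts in controls (SD, n = 4) and 14.1%, 15.4% and 17.3% in the 3 ICI-myocarditis libraries, all above the highest control, at 12.4%.

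**Figure D1:**
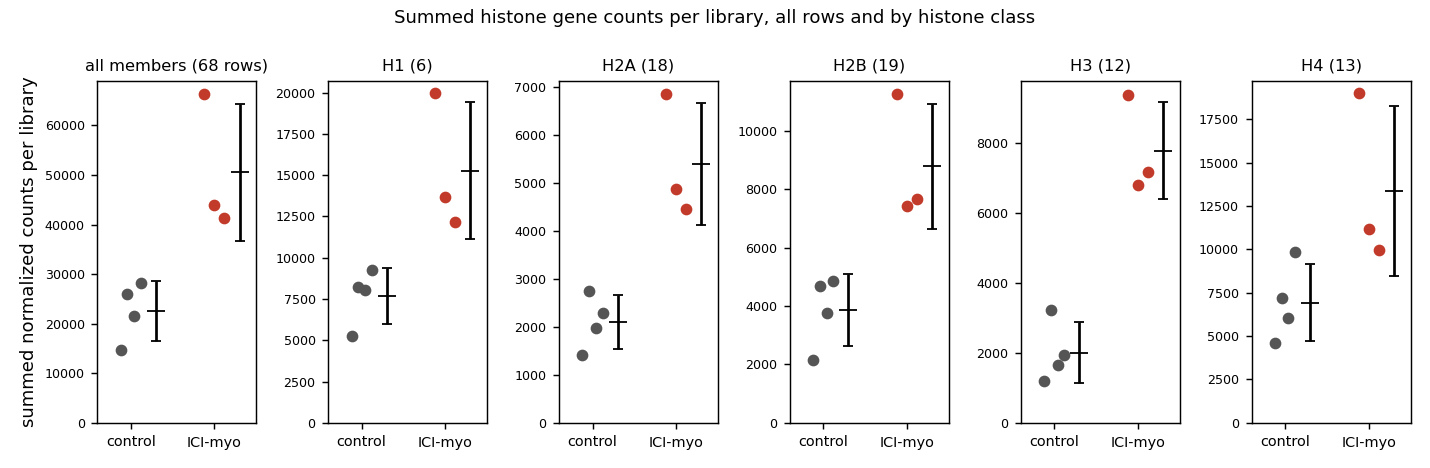
Summed normalized counts per library for all 68 rows and for each histone class (number of rows in brackets). Points are libraries and bars give the mean ± SD, and in every panel the 3 ICI-myocarditis libraries lie above the 4 controls, although for H4 the gap between 9835 and 9938 is narrow.

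Gene by gene, 58 of the 68 passed the filter on low counts and were tested. Of these, 42 rose and 1 fell at a limma adjusted p below 0.05, while 15 did not pass. Over all 15258 genes tested the share called was 11.7% higher and 4.00% lower. Changes are given as the log2 ratio of ICI-myocarditis over control, from means of log2(normalized count + 1). Its median over the 58 genes was 1.90, against -0.02 over all genes tested, and it ranged from -1.31 for Hist2h2be to 2.92 for Hist1h2ab. All 3 ICI-myocarditis libraries lay above all controls in 45 of the 58 genes and all below in 1, where the background over all genes was 17.3% and 11.3%. In the authors' deposited table an adjusted p was given for 61 histone genes. At a value below 0.05 there were 45 higher and 1 lower, among them all 43 called here. Their comparison rests on the same libraries and is not a separate check. The count of 43 fell to 25 without ICI-myocarditis 1, to 28 without ICI-myocarditis 2 or 3, and to 25 without control 3, and 24 genes passed under all 17 alternatives.

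**Figure D2:**
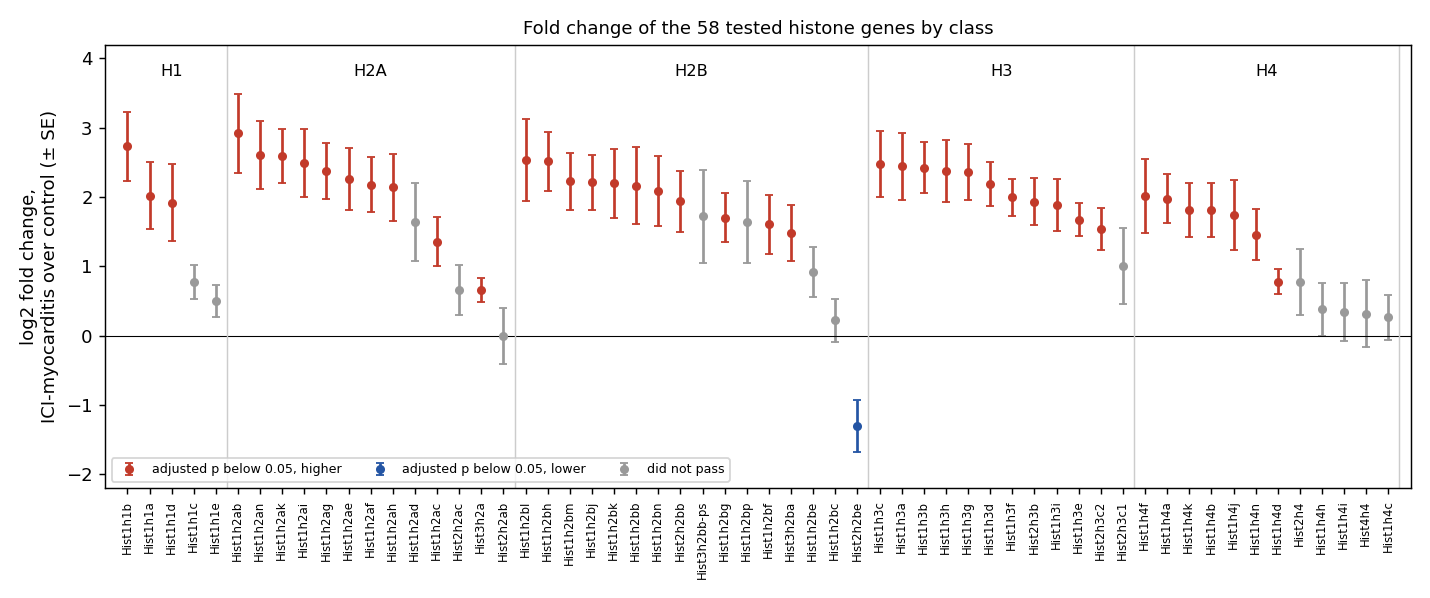
Log2 ratio (ICI-myocarditis over control, ± SE) of the 58 tested histone genes, grouped by class and coloured by the limma call. Most called genes of H2A, H2B and H3 lie near 2. Genes below 1 that did not pass lie in H1, H2A, H2B and, most of all, H4. Hist2h2be alone was called lower.

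H3, which carries many of the modified residues on nucleosome tails, was the class with the highest share of calls. Of its 12 genes, 11 rose, and the median log2 ratio was 2.09. Hist1h3c, one of the most abundant H3 rows, had 119, 633, 220 and 308 normalized counts in controls 1 to 4 and 1982, 1297 and 1300 in ICI-myocarditis. The groups did not overlap, and the log2 ratio was 2.48 (SE 0.481, limma adjusted p = 0.00983). Hist1h3e had 345, 666, 432 and 553 normalized counts in controls and 1653, 1444 and 1544 in ICI-myocarditis, a narrow spread within each group, and rose by 1.67 (SE 0.241, limma adjusted p = 0.0040). Hist1h3f had 190, 377, 249 and 241 in controls and 1285, 862 and 971 in ICI-myocarditis. It rose by 2.00 (SE 0.264) and had the lowest limma adjusted p of all histone genes, 0.00356. Hist1h3d, with 64.5, 160, 74.8 and 87.6 in controls and 392, 457 and 406 in ICI-myocarditis, rose by 2.19 (SE 0.323, limma adjusted p = 0.00419). Hist1h3b, a lower row at 23.2 to 48.1 in controls and 159 to 207 in ICI-myocarditis, rose by 2.42 (limma adjusted p = 0.00436). All 9 Hist1 genes of the class were called, and every one of these calls held under all 17 alternatives.

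The Hist2 genes of the class were less uniform. Hist2h3b had 57.5, 143, 75.9 and 68.8 normalized counts in controls and 310, 255 and 384 in ICI-myocarditis, a rise of 1.93 (SE 0.343, limma adjusted p = 0.00728). Hist2h3c2 rose from 45.4 to 70.1 in controls to 136 to 200 in ICI-myocarditis, by 1.54 (limma adjusted p = 0.00978). Hist2h3c1 overlapped between groups, with 22.5 to 96.2 in controls and 57.3, 81.2 and 189 in ICI-myocarditis, and did not pass (log2 ratio 1.01, limma adjusted p = 0.255). Over windows of 150 bases, the read length, 100% of the Hist2h3b and Hist2h3c1 transcripts and 59.4% of Hist2h3c2 are identical to another gene or predicted transcript, so their reads may be split or lost between these rows.

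H2A pairs with H2B in the nucleosome. Of 13 tested H2A genes 10 rose, with a median log2 ratio of 2.18. Hist1h2ak had 117, 365, 123 and 173 normalized counts in controls and 1356, 960 and 887 in ICI-myocarditis. The ICI-myocarditis libraries all lay well above the highest control, and the log2 ratio was 2.59 (SE 0.387, limma adjusted p = 0.00426). None of its windows of 150 bases is shared with another gene. Hist1h2af, with 56.5 to 190 in controls and 355 to 439 in ICI-myocarditis, rose by 2.18 (limma adjusted p = 0.0080), and Hist1h2ag, with 23.2 to 70.3 and 190 to 259, rose by 2.38 (limma adjusted p = 0.0064). Hist1h2ab showed the largest fold change of all histone genes, from 21.2, 157, 48.0 and 51.3 in controls to 528, 403 and 330 in ICI-myocarditis. Its log2 ratio was 2.92 (SE 0.565, limma adjusted p = 0.00979), and it is named for that value after it was seen. Other genes share 58.4% of the windows of Hist1h2af, 65.5% of Hist1h2ag and 45.1% of Hist1h2ab, so their reads may be split between rows.

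Of the H2A genes outside Hist1, only Hist3h2a passed. It was flat within controls, at 743, 776, 724 and 807 normalized counts, and reached 1365, 1179 and 1072 in ICI-myocarditis, a rise of 0.65 (SE 0.171, limma adjusted p = 0.0309) that passed under 11 of 17 alternatives (highest adjusted p 0.156). Its transcripts overlap those of Trim17 on the same strand over 28.0% of the windows. Hist2h2ac had 285, 620, 642 and 751 in controls and 1283, 708 and 682 in ICI-myocarditis, so that only ICI-myocarditis 1 stood clear of the controls (log2 ratio 0.66, limma adjusted p = 0.264). Hist2h2ab overlapped throughout, with 34.3 to 76.5 and 38.2 to 82.9 normalized counts and a log2 ratio of -0.01 (SE 0.403, limma adjusted p = 0.990) whose sign turned under 5 alternatives.

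H2B held both the only lower gene and several large rises. Of 16 tested genes 11 rose and 1 fell, with a median log2 ratio of 1.83. Hist1h2bh had 36.3, 137, 74.8 and 104 normalized counts in controls and 549, 355 and 490 in ICI-myocarditis, with no overlap (log2 ratio 2.52, SE 0.426, limma adjusted p = 0.00623). Hist1h2bj had 46.4 to 162 in controls and 328 to 436 in ICI-myocarditis (log2 ratio 2.21, limma adjusted p = 0.00777). Hist2h2bb, among the most abundant H2B rows, had 158, 604, 402 and 494 in controls and 2184, 1155 and 1145 in ICI-myocarditis (log2 ratio 1.94, SE 0.446, limma adjusted p = 0.0194), but all its windows of 150 bases are also in predicted transcripts named Gm20628 and Gm42743. Hist3h2ba rose by 1.48 (limma adjusted p = 0.0380), from 19.2 to 55.5 normalized counts in controls to 71.0 to 111, and passed under 8 of 17 alternatives (highest adjusted p 0.129). Hist3h2bb-ps, labelled a pseudogene by its symbol, had 10.1, 64.1, 22.3 and 41.3 in controls and 220, 52.9 and 72.6 in ICI-myocarditis and did not pass (log2 ratio 1.72, limma adjusted p = 0.123). The 11 H2B genes that rose became 5 without ICI-myocarditis 1 or 2, 6 without ICI-myocarditis 3 and 4 without control 3.

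Hist2h2be encodes an H2B form known for its expression in olfactory neurons. It had 317, 194, 382 and 490 normalized counts in controls and 144, 185 and 85.6 in ICI-myocarditis. The groups did not overlap, though control 2 and ICI-myocarditis 2 lay close together. It fell by 1.31 as a log2 ratio (SE 0.370, limma adjusted p = 0.0426), a call that passed under 9 of 17 alternatives (highest adjusted p 0.168) and was lost without any 1 of ICI-myocarditis 1, 2 or 3 or of controls 1, 3 or 4. Its gene model has 2192 bases after the stop codon, no match to the stem-loop motif, and no window shared with another gene. The most abundant H2B row in controls, Hist1h2bc, also had no match to the motif in its only annotated transcript. That transcript has 2 exons, and the intron between them was not searched. Hist1h2bc had 896, 981, 1209 and 1944 normalized counts in controls and 1873, 1446 and 1008 in ICI-myocarditis. The groups overlapped throughout (log2 ratio 0.22, SE 0.310, limma adjusted p = 0.685). Hist1h2be, whose long model overlaps Hist1h1e on the same strand, had 288 to 815 and 800 to 1346 normalized counts and did not pass (log2 ratio 0.92, limma adjusted p = 0.121).

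**Figure D3:**
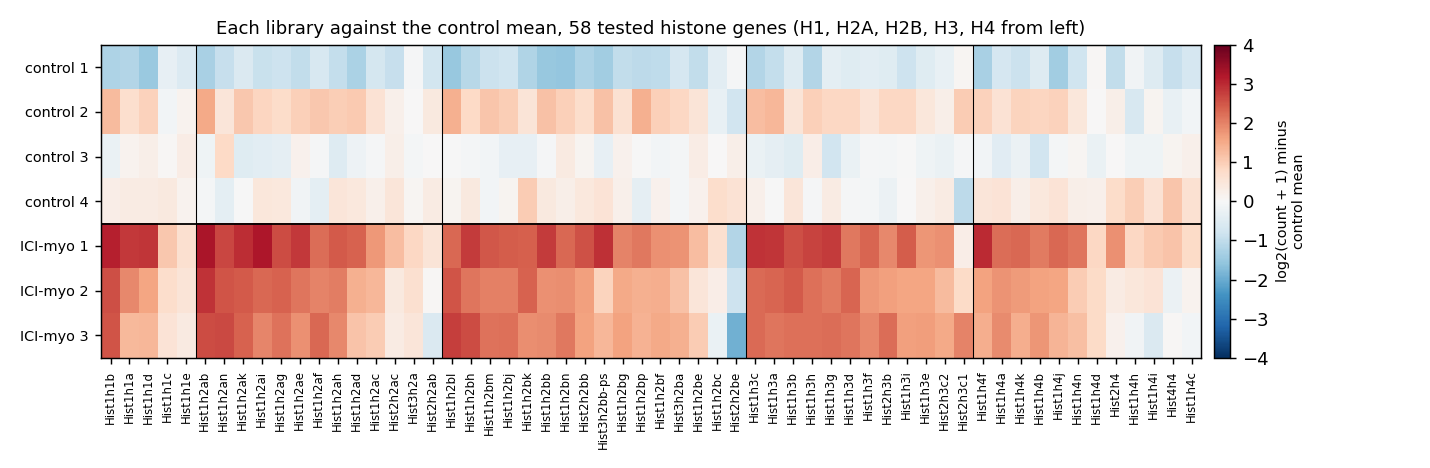
Each library's log2(normalized count + 1) minus the control mean for the 58 tested genes, ordered by class and fold change. ICI-myocarditis 1 is the highest ICI-myocarditis library for 52 genes, control 1 the lowest control for 51 and control 2 the highest control for 43, and Hist2h2be alone is blue in all ICI-myocarditis rows.

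H1, the linker histone, held genes with large changes and genes with small ones. The 3 that rose were Hist1h1a, Hist1h1b and Hist1h1d. Hist1h1b had 77.6, 444, 155 and 221 normalized counts in controls and 1626, 1110 and 1062 in ICI-myocarditis (log2 ratio 2.74, SE 0.498, limma adjusted p = 0.00807), and this call held under all 17 alternatives. Hist1h1a had 70.6, 258, 179 and 204 in controls and 1157, 615 and 394 in ICI-myocarditis (log2 ratio 2.02, SE 0.484, limma adjusted p = 0.0229). Hist1h1d had 226, 1182, 736 and 797 in controls and 4551, 1867 and 1595 in ICI-myocarditis, where ICI-myocarditis 1 stood far above the others (log2 ratio 1.92, SE 0.555, limma adjusted p = 0.0461). Hist1h1d passed under only 7 of 17 alternatives (highest adjusted p 0.137). The count of 3 fell to 1 without ICI-myocarditis 1, ICI-myocarditis 2 or control 3.

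Hist1h1c and Hist1h1e, linker genes that are known to be expressed also outside S phase, made up most H1 counts. Hist1h1c had 3626, 4287, 4736 and 5971 normalized counts in controls and 9750, 7403 and 6682 in ICI-myocarditis. The groups did not overlap, yet the log2 ratio of 0.78 (SE 0.248) did not pass (limma adjusted p = 0.0641), and it passed under 3 of 17 alternatives (highest adjusted p 0.188). Hist1h1e had 1263, 2045, 2261 and 2049 in controls and 2874, 2651 and 2407 in ICI-myocarditis, again without overlap (log2 ratio 0.50, SE 0.232, limma adjusted p = 0.181). Hist1h1b took 1.47% to 5.40% of H1 counts in controls and 8.13% to 8.74% in ICI-myocarditis, and Hist1h1e took 22.2% to 28.0% and 14.4% to 19.8%. Per kilobase of annotated exon, Hist1h4h had the highest control mean of the histone genes, at 3099 normalized counts, and Hist1h1c followed at 2984.

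H4, the partner of H3, was the class with the most genes that did not pass. Of 12 tested genes 7 rose, 5 did not pass, and the median log2 ratio was 1.12. Hist1h4a had 78.6, 189, 90.4 and 184 normalized counts in controls and 595, 435 and 471 in ICI-myocarditis (log2 ratio 1.97, SE 0.354, limma adjusted p = 0.00765). Hist1h4b had 117, 300, 97.1 and 225 in controls and 699, 512 and 569 in ICI-myocarditis (log2 ratio 1.81, SE 0.387, limma adjusted p = 0.0141). Hist1h4d differed less but more evenly, with 1376, 1350, 1101 and 1530 in controls and 2338, 2253 and 2243 in ICI-myocarditis (log2 ratio 0.78, SE 0.177, limma adjusted p = 0.0185). It passed under 12 of 17 alternatives (highest adjusted p 0.0801), and no window of Hist1h4d is shared. Hist1h4a and Hist1h4b share 23.1% and 63.3% of their windows with other genes. The 7 H4 genes that rose became 1 without ICI-myocarditis 1, 4 without ICI-myocarditis 2 or control 1, and 2 without ICI-myocarditis 3 or control 3.

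The H4 genes that did not pass included 2 of the most abundant. Hist1h4h had 1194, 859, 1168 and 2605 normalized counts in controls and 2372, 1812 and 1193 in ICI-myocarditis, so that control 4 was the highest of all 7 libraries (log2 ratio 0.38, SE 0.379, limma adjusted p = 0.557). Hist2h4 had 475, 1124, 969 and 1574 in controls and 3352, 1204 and 1062 in ICI-myocarditis (log2 ratio 0.77, SE 0.478, limma adjusted p = 0.318). Hist4h4, the single gene on chromosome 6, had 120, 188, 249 and 500 in controls and 504, 196 and 238 in ICI-myocarditis (log2 ratio 0.32, limma adjusted p = 0.717), and its sign turned without ICI-myocarditis 1 (-0.09). Hist1h4c and Hist1h4i overlapped as well, at log2 ratios of 0.26 and 0.34, and the sign of Hist1h4i also turned without ICI-myocarditis 1.

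Among the 15 genes that did not pass, control 4 was the highest control in 8 and ICI-myocarditis 1 the highest ICI-myocarditis library in 14. In 7 of the 15, and in 0 of the 43 genes called, these were the 2 highest of all libraries. The share over all genes was not counted. A high control itself keeps a gene from passing, so these counts are a description only. Rpph1 and Rmrp, abundant short RNAs without poly(A) tails, stood highest in the same libraries, and so did some genes of other kinds. Rpph1, the RNA of ribonuclease P, had 55099, 220630, 127329 and 458928 normalized counts in controls and 457491, 104307 and 61639 in ICI-myocarditis. Rmrp, the RNA of a related enzyme, had 29292, 85884, 58365 and 155398 in controls and 124347, 59068 and 61955 in ICI-myocarditis. Neither passed the test between groups (log2 ratio -0.19 and 0.15, limma adjusted p = 0.910 and 0.888). Among the variant histone genes, control 4 and ICI-myocarditis 1 were also the 2 highest libraries for H3f3a (9797 and 9750 normalized counts) and Cenpa (1179 and 951), though not for H2afx. Over all genes tested, deviations of these 2 libraries from their group means correlated at 0.45. This was the highest value of all pairs across groups, for a pair picked after it was seen. ICI-myocarditis 3 gave 0.40 with control 2 and -0.48 with control 4. Deviations from a group mean are tied to each other, so these values are not independent. The pattern was thus not confined to histone mRNAs and short RNAs. The part of Rpph1 and Rmrp in the histone values was not tested.

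**Figure D4:**
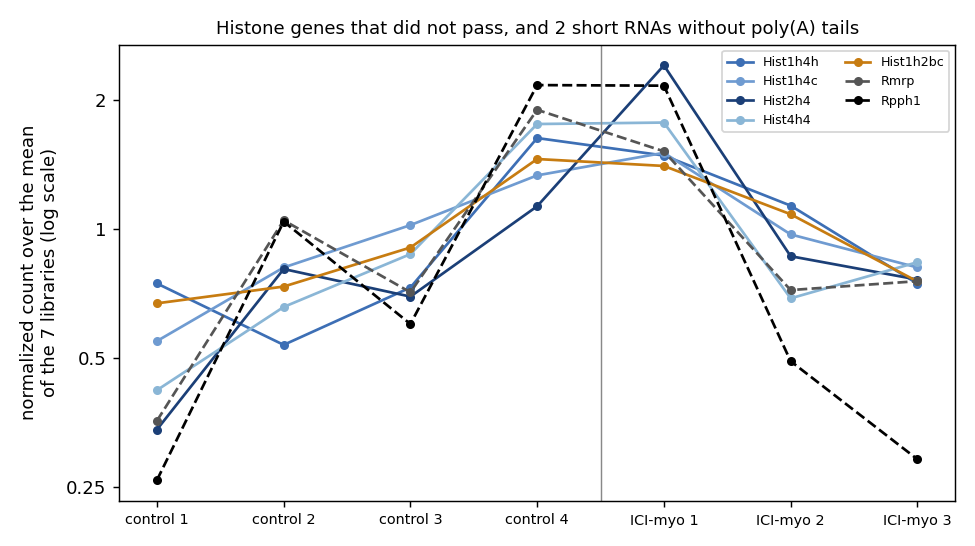
Normalized counts of 5 histone genes that did not pass, picked after their values were seen, and of Rmrp and Rpph1, each divided by its mean over the 7 libraries (log scale), by library. Control 4 and ICI-myocarditis 1 are the 2 highest libraries for each line. The pattern was found in 7 of the 15 genes that did not pass and in 0 of the 43 called, and also in H3f3a and Cenpa.

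The median change was smaller among genes with a long annotated 3' end than among those with a short or missing one. This split is given as a description with no test. A model was called long when it held more than 200 bases after the stop codon, a limit chosen after the values were seen. By it 24 genes were long and 44 short. The short genes include 14 with no annotated base after the stop codon, so that their 3' end is missing from the annotation. Hist3h2bb-ps, a processed pseudogene, is among these. Of 21 tested long genes 11 rose, 1 fell and 9 did not pass, with a median log2 ratio of 0.92. Of 37 tested short genes 31 rose and 6 did not pass, with a median of 2.14. By class, some medians rest on few tested genes, whose number is in brackets. The medians of long and short genes were 0.78 (3) and 2.38 (2) in H1, and 1.01 (2) and 2.26 (11) in H2A. They were 0.92 (5) and 2.09 (11) in H2B, 1.67 (5) and 2.37 (7) in H3, and 0.56 (6) and 1.82 (6) in H4. Summed over genes, short models held 0.342, 0.626, 0.387 and 0.450 times the counts of long models in controls and 0.871, 0.783 and 0.796 times in ICI-myocarditis, with no overlap. Exceptions stood on both sides: Hist1h2bh, with 1258 bases after the stop codon, rose by 2.52, and Hist1h4h, with 93, did not pass. Just inside the limit Hist3h2ba had 213 bases and a log2 ratio of 1.48, and just outside it Hist1h2bg had 200 bases and 1.70. The 11 long genes that rose became 5 without ICI-myocarditis 1, 2 or 3 or control 3, and 6 without control 1, and the 31 short genes became 20 without ICI-myocarditis 1 or control 3. Counts per gene do not show which 3' end the reads came from. Many long genes, among them Hist1h1c, Hist1h4d and Hist2h2be, share under 10% of their windows with other genes, though Hist2h3c1 shares 100%. The split by 3' end thus overlaps the split by shared windows given below, and their parts were not tested.

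**Figure D5:**
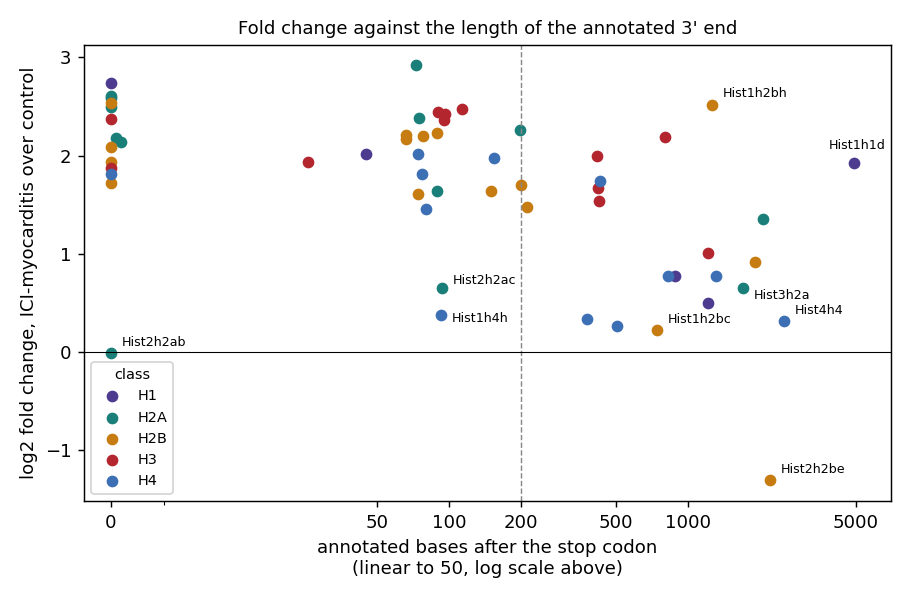
Log2 ratio of the 58 tested genes against the annotated bases after the stop codon (linear to 50, log scale above), coloured by class, with the limit of 200 bases dashed. Most genes left of the line lie between 1.5 and 3, and those right of it spread from -1.31 to 2.52.

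Close copies limit what single rows can show. Of the 68 genes, 7 were listed at 0 in all libraries: Hist1h2aa, Hist1h2ao, Hist1h2ap, Hist1h2bq, Hist1h2br, Hist1h4m and Hist2h2aa1. Except for Hist1h2aa, at least 84.2% of the windows of each are identical to another gene. The coding sequences are identical between Hist1h2ao and Hist1h2ap, between Hist1h2bq and Hist1h2br, between Hist1h4m and Hist1h4n, and between Hist2h2aa1 and Hist2h2aa2. Hist1h4n was called (log2 ratio 1.46, limma adjusted p = 0.0277) while its copy Hist1h4m was listed at 0. Hist2h2aa2, Hist1h1t, known from testis, and Hist1h2ba, a testis H2B, had at most 9.87 normalized counts in any library and were not tested. Among genes with under 10% of windows shared, 10 of 19 tested rose and 1 fell, with a median log2 ratio of 1.36. From 10% to 50% it was 18 of 22 (2.04), and from 50% 14 of 17 (1.93). Many genes under 10% have long models, so these counts and the split by 3' end are not separate.

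H2A and H2B genes often lie head to head and share the DNA between their starts. There were 13 such pairs, with 173 to 306 bases between the starts, and in 10 both genes were tested and in 5 both rose. Hist1h2ah and Hist1h2bk moved alike, with log2 ratios of 2.14 and 2.20. Hist2h2ac and Hist2h2be differed most, at 0.66 and -1.31, and Hist1h2ac (1.36) and Hist1h2bc (0.22) also lay apart. The difference within pairs was not tested. The shared regions of the most unlike pair and of a like pair are shown for comparison, from RefSeq promoters (GRCm38.p6), on the plus strand. The H2A gene starts leftwards and the H2B gene rightwards, and capitals mark the octamer ATTTGCAT, CCAAT and TATAAA on either strand.
Hist2h2ac-Hist2h2be chr3:96220881-96221118: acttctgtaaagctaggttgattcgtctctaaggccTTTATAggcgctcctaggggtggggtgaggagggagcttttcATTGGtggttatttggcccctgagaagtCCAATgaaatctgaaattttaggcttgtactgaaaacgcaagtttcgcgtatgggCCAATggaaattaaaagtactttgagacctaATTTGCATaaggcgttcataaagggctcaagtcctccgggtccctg
Hist1h2ah-Hist1h2bk chr13:22035571-22035869: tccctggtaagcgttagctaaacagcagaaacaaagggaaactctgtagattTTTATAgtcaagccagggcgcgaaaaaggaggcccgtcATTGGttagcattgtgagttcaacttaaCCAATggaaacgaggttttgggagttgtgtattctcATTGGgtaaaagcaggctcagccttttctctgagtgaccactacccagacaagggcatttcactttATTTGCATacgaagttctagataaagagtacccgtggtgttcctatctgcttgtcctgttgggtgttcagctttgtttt
Each region held 1 octamer, 3 CCAAT and 1 TATAAA. The octamer, a known element of H2B promoters, was read in 7 of 17 H2A and 6 of 16 H2B promoters (250 bases before to 50 after the start) and in none of the 6 H1, 10 H3 and 12 H4 promoters, against 1.75% of 27025 promoters. CCAAT was read in 52 of 61 histone promoters (37.9% of all) but in only 3 of 12 H4 promoters, and TATAAA in 35 of 61 (14.2% of all).

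Genes that act with these histones were read from lists for comparison. Of 18 genes of histone mRNA processing and transcription, 0 were called by limma, edgeR or DESeq2, and 2 had an unadjusted limma p under 0.05, at a median log2 ratio of -0.05. Slbp, the stem-loop binding protein, had 327 to 391 normalized counts in controls and 428 to 477 in ICI-myocarditis and did not pass (log2 ratio 0.31, SE 0.180, limma adjusted p = 0.277). Npat had 619 to 903 and 715 to 863 (log2 ratio 0.09, limma adjusted p = 0.814). Zfp473, Eri1 and Snrpb had the lowest p of the list and did not pass either (log2 ratio 1.98, 0.40 and -0.32).

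Of 18 histone chaperone and deposition genes 3 rose, a share of 16.7% beside 11.7% over all genes, and the list had a median log2 ratio of 0.08. Asf1b, an H3-H4 chaperone, had 29.2, 54.3, 31.3 and 33.8 normalized counts in controls and 142, 151 and 196 in ICI-myocarditis (log2 ratio 2.13, SE 0.324, limma adjusted p = 0.0043). Chaf1a and Chaf1b, subunits of chromatin assembly factor 1, rose by 1.19 and 2.26 (limma adjusted p = 0.0229 and 0.0253), while its other subunit Rbbp4 had a log2 ratio of 0.01 (limma adjusted p = 0.986). Without ICI-myocarditis 2, ICI-myocarditis 3, control 1 or control 3 the count was 1.

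Of 12 variant histone genes, which can be made outside S phase, 3 rose, with a median of 0.31 over the list. H2afx, which marks DNA breaks and can also carry the stem-loop, had 339, 481, 248 and 379 normalized counts in controls and 1363, 1170 and 1097 in ICI-myocarditis (log2 ratio 1.77, SE 0.242, limma adjusted p = 0.0037). H2afz rose by 0.98 and H2afy3 by 2.08 (limma adjusted p = 0.0395 and 0.0416), and without any 1 ICI-myocarditis library, control 1 or control 3 the count was 1. The replacement H3 genes H3f3a and H3f3b did not pass (log2 ratio 0.01 and 0.39, limma adjusted p = 0.995 and 0.285), nor did H1f0 (-0.59) or Cenpa (-0.41), and the sign of H3f3a turned under 6 alternatives.

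Of 32 DNA replication genes 14 rose and 18 did not pass, with a median log2 ratio of 0.89 and 29 of them above 0. E2f1, a factor that drives entry into S phase, rose by 1.81, Cdt1, a licensing factor, by 1.68 and Rrm2, a subunit of ribonucleotide reductase, by 1.61 (limma adjusted p = 0.0090, 0.0062 and 0.0085), while Pcna, the sliding clamp, did not pass (0.65, limma adjusted p = 0.0984). The count was 5 without ICI-myocarditis 2, ICI-myocarditis 3 or control 3, 6 without control 1 and 23 without control 2. Of 20 mitosis genes 18 rose (median 2.10), with Mki67 at 2.36, Birc5 at 2.41, Cdk1 at 1.85 and Cdc20 at 1.72. Histone counts were 2.54, 2.71, 3.01 and 3.96 times the summed replication genes in controls and 5.10, 3.39 and 3.07 times in ICI-myocarditis, and the groups overlapped. Set against the mitosis genes they also overlapped, at 5.54, 4.40, 7.25 and 10.8 in controls and 7.48, 3.90 and 4.16.

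Of 8 tested RNAs without poly(A) tails other than histone mRNAs, 0 were called by limma or edgeR, 1 had an unadjusted limma p under 0.05, and DESeq2 called 1 lower. Rn45s, the precursor of ribosomal RNA, had 454476 to 1037440 normalized counts in controls and 1163220 to 1266060 in ICI-myocarditis (log2 ratio 0.69, limma adjusted p = 0.348), and Rnu11 and Rnu12, RNAs of the minor spliceosome, had -0.97 and -1.11.

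Markers of other cells moved in the same libraries. All 8 T cell markers and all 7 macrophage markers were called higher, with median log2 ratios of 5.19 and 2.55, as were 3 of 6 fibroblast, 1 of 4 B cell and 1 of 3 neutrophil markers. Of 6 endothelial markers 3 were called lower (median -1.10), and of 8 cardiomyocyte markers 0 were called by limma (median -0.76), 2 having an unadjusted limma p under 0.05, while edgeR called 0 and DESeq2 4. Of 4 tested erythroid precursor markers 1, Tfrc, was called lower, and summed macrophage markers were 10537 to 11905 in controls and 33398 to 66321 in ICI-myocarditis. Control 2, which had the most T cell marker counts among controls, was also the highest control in 43 of 58 histone genes. Control 4, which had the fewest T cell marker counts (116), had the highest summed histone counts among controls, 28163 against 26033 in control 2. ICI-myocarditis 1, the highest for 52 histone genes, had 7262 T cell and 33398 macrophage marker counts, against 10794 and 66321 in ICI-myocarditis 3. The part of these cells in the histone values was not tested. Of 6 thymocyte markers, Foxn1 was listed at 0 in every library, Rag1 in 6 of 7, Ptcra did not exceed 1.02, Dntt 3.06 and Rag2 10.05 normalized counts, while Cd1d1 had 65.5 to 178 in controls and 71.8 to 102 in ICI-myocarditis.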

How the data were processed

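RNA was measured by paired-end sequencing of total RNA in 4 control and 3 ICI-myocarditis libraries. Reads were aligned with STAR 2.7.3 to GRCm38 (mm10), per the submitters' processing notes. The counting program, annotation and use of strand are not given in the sources used here. The deposited signal of each library is gene read counts divided by 1 size factor, as the values show. The authors' deposited table adds their own comparison: log2 fold change, standard error, test score, p-value and its adjusted form. Whole reads were recovered in all 7 libraries, less surely in control 1, whose step lay near 1. Reads are not independent molecules.

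The test was limma 3.58.1 (R 4.3.3; trend, robust) on log2(normalized count + 1), for genes reaching 10 normalized counts in 3 or more libraries, with Benjamini-Hochberg adjustment over all genes and a threshold of 0.05. Ratios on this scale understate the change of low genes. Of the 17 alternatives, some used edgeR 4.0.16 or DESeq2 1.42.0 on recovered reads. The genes, lists and limits were chosen with earlier results of these data known. Full values are given for the 3 tested members of each class with the highest mean count, the 2 others with the lowest p, every tested H1 gene and every tested gene of Hist2, Hist3 and Hist4. From each of 6 companion lists the 3 genes with the lowest p are named, with 9 set in the rule. Other genes named were chosen after their values were seen. Transcripts came from GENCODE M21 and promoters from RefSeq, of which 61 matched a histone gene.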

Additional observations from a re-analysis of the deposited data

Results flagged for a closer look

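Of 65 results examined across controls as log2 values, 1 had a single library set apart from the rest: Cdt1, a licensing factor of DNA replication, where control 2 was high. Its gap to the next control was 0.887 of the group's range, above Dixon's 95% critical value for 4 samples. Chance alone would give about 3.25 such results among 65. Control 2 had 142 normalized counts of Cdt1 and the other controls had 80.7, 78.2 and 75.1.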

How the results depend on the processing

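Leaving out 1 library at a time gave 25 to 46 histone genes called, against 43, and 986 to 3340 genes called in all, against 2397. The median log2 fold change of histone genes ranged from 1.55 to 2.16 when 1 library was left out, and 55 of the 58 tested genes kept their sign under all 17 alternatives. Of the 15 genes not called, 11 passed under none. On recovered reads edgeR called 39 histone genes and DESeq2 46. For Hist1h1a, Hist1h1b and Hist1h1c the DESeq2 log2 fold changes (2.02, 2.50 and 0.77) equal the authors' deposited values. The DESeq2 count and the authors' calls are therefore not separate results. Scaling by library size moved the median of all genes to 0.13 and that of histone genes to 2.06. Signs changed in 3 histone genes and, among the companion genes that the naming rule took, in H3f3a. Hist2h2ab turned to 0.15 with scaling by library size, to 0.10 with the replicate block, and to 0.28 at most without ICI-myocarditis 3, control 2 or control 4. Hist1h4i turned to -0.0073 and Hist4h4 to -0.089 without ICI-myocarditis 1, where leaving out 1 library gave up to 0.69 for Hist4h4. H3f3a turned to -0.00065 with edgeR, to -0.0063 with DESeq2, to -0.00041 with TMM rescaling, and to -0.36 at the lowest without ICI-myocarditis 1, control 1 or control 2, with 0.25 the highest value when 1 library was left out. The cause was not tested. Replicate numbers are shared by the groups. Deviations of same-numbered libraries from their group means correlated at -0.27, -0.21 and -0.08, which gave no sign of pairing by number. With so few libraries in each mean, these values cannot exclude a shared litter or batch. With the number as a block, 36 histone genes were called and 1780 genes in all. Control 4 was alone in its block, so the block estimates equal those without control 4, and the 2 alternatives are not separate for signs or medians. The effect of depth was not tested.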
